A study of Mus musculus with 6 samples.

Results

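The SLAM family (signalling lymphocytic activation molecule) is a group of immune receptors, and 9 of its genes were followed here in the mouse cerebral cortex at 2 ages: Cd244a, Cd48, Cd84, Ly9, Slamf1, Slamf6, Slamf7, Slamf8 and Slamf9. They were chosen by gene symbol from the 55421 genes in the files, with results of these same libraries known. All 9 were among the 32905 genes that reached the minimum for the test, a sum of 10 counts. Cd244a and Slamf8 belong to the genes that the study listed as changed on the counts of these mice, so their values at 24 against 6 months are given as a description and carry no p-value.

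Both ages were male wild-type C57BL/6J mice on a standard diet, with 3 mice at 6 months (mice 10, 11 and 17) and 3 at 24 months (mice 2, 4 and 5), and no mouse was sampled at both ages. The mice were anaesthetised with isoflurane before cervical dislocation, and the cerebral cortex was dissected out, so each value is a mixture of neurons, glia, vessels and any blood or border cells in the piece. Libraries were made from 10 ng of total RNA with a kit for low input. In bulk tissue of this kind, fewer cells of a type and less RNA per cell cannot be told apart.

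SLAM receptors are cell surface proteins of the immunoglobulin superfamily, carried mainly by blood cells. Most bind a copy of themselves on a neighbouring cell, while Cd244 (also called 2B4) binds Cd48, which has no signalling tail and is held in the membrane by a lipid anchor. Most of the others carry tyrosine motifs in their tails that dock small adaptors of the SAP family, through which the same receptor can pass an activating or an inhibitory signal, whereas Slamf8 and Slamf9 have short tails without those motifs.

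The genes lie close together on chromosome 1, and their promoters are the DNA on which the family could be read as a group. RefSeq promoters (build GRCm38.p6) were found for 8 of the 9 genes. A window from 250 bases before the start of transcription to 30 bases after it was searched on both strands for the letters GAGGAA (the core of the PU box, the site of the myeloid and B cell factor PU.1) and CACGTG (the E-box). These letters do not overlap each other, and they were chosen after the sequences had been seen. Of the 8 windows, 4 held GAGGAA (Cd244a, Cd84, Slamf8 and Slamf9), against 25.9% of the 27025 promoters in the same table, and 3 held CACGTG (Cd244a, Slamf8 and Slamf9), against 6.89%. The 3 windows with CACGTG all held GAGGAA as well, and 1.65% of all promoters held both. These 3 genes include those with the 2 largest fitted differences between the ages, Cd244a and Slamf8, and that with the smallest, Slamf9. Shown are the windows of these 3 and that of Cd48, the gene with the highest mean TPM over the 6 mice, whose window held neither. They run 5′ to 3′ on the strand of the gene with both motifs, or their reverse complement, in capitals. The window of Cd244a is chr1:171558943-171559222 on the plus strand, that of Slamf8 is chr1:172590539-172590818 on the minus strand, that of Slamf9 is chr1:172475110-172475389 on the plus strand and that of Cd48 is chr1:171681742-171682021 on the plus strand.
Cd244a: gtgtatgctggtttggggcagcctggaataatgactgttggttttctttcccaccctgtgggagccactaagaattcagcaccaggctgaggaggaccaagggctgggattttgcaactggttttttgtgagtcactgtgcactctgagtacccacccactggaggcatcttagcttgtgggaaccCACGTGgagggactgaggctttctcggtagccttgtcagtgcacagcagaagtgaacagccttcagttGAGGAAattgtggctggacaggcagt
Slamf8: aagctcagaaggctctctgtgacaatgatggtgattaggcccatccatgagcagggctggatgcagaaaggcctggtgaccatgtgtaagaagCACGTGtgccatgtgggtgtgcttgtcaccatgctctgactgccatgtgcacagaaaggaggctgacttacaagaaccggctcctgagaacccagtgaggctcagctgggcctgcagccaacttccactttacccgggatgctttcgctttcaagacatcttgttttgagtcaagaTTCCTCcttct
Slamf9: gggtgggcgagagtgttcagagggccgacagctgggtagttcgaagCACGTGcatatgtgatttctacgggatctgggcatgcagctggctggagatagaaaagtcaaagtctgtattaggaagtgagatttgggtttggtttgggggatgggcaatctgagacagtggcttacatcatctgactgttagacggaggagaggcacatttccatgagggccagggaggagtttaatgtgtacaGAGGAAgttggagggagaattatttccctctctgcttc
Cd48: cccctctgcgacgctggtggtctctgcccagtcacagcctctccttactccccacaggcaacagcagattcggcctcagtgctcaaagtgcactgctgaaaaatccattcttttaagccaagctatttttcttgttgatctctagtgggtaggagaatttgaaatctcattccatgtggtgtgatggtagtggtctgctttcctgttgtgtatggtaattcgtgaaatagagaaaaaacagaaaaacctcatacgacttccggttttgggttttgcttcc
A match to these letters describes the window and is no measure of binding. The letters CACGTG began 64 bases before the start in Cd244a, 157 before it in Slamf8 and 204 before it in Slamf9.

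The libraries held 29495379 to 36494240 counts each, so a gene at 1 CPM (a count for every 1000000 counts of the library) had about 30 counts, and most of the receptors were below that. The 24-month libraries had counts on more genes, 40208 to 43561 against 33974 to 35651 at 6 months. TMM scaling is meant to set the bulk of genes level. It left the median of all genes tested at a log2 fold change of 0.15, and scaling by library totals moved it to 0.33. For genes above 1 CPM the median was -0.14 with TMM and 0.05 with library totals, so the abundant genes were nearer level with library totals. With library totals 4113 genes passed a false discovery rate (FDR) of 10% and were higher at 24 months and 323 were lower, against 3299 and 2742 with TMM.

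Levels are given in TPM, transcripts per 1000000, which divides by gene length. Over the 6 mice, Cd48 had the highest mean, 3.22 ± 0.881 TPM (SD, n = 6), followed by Slamf9 at 3.19 ± 0.806 and Cd84 at 1.93 ± 0.370. Ly9 was at 0.832 ± 0.492, Slamf8 at 0.727 ± 0.603 and Slamf1 at 0.368 ± 0.132. The lowest were Slamf6 at 0.260 ± 0.124, Cd244a at 0.196 ± 0.173 and Slamf7 at 0.180 ± 0.115 TPM. The ends of this order differed between the ages by mean, but not in every mouse. Slamf9 came first at 6 months, at 2.86 TPM against 2.56 for Cd48, and Cd48 first at 24 months, at 3.88 against 3.53. At 6 months Slamf9 led through mouse 10 (3.54 against 2.19 TPM), and Cd48 was above it in mice 11 and 17. At 24 months Slamf9 was above Cd48 in mouse 5. Cd244a had the lowest mean at 6 months, though Slamf7 was below it in mouse 17, and Slamf7 had the lowest mean at 24 months. Each gene's range over the 6 mice overlapped that of the next gene in this order. Within the same mouse, Slamf9 was above Cd84 and Cd84 above Ly9 in 6 of 6 mice, whereas every other gene was above its neighbour in only 4 or 5 of 6. The 3 leading genes ran from 1.43 to 4.60 TPM over all mice, and the other 6 from 0.0232 to 1.83 TPM. Among all 55421 genes, Cd48 ranked 13792 by mean TPM and Slamf7 ranked 35341. The plot of TPM by mouse shows all 9 genes.

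**Figure D1:**
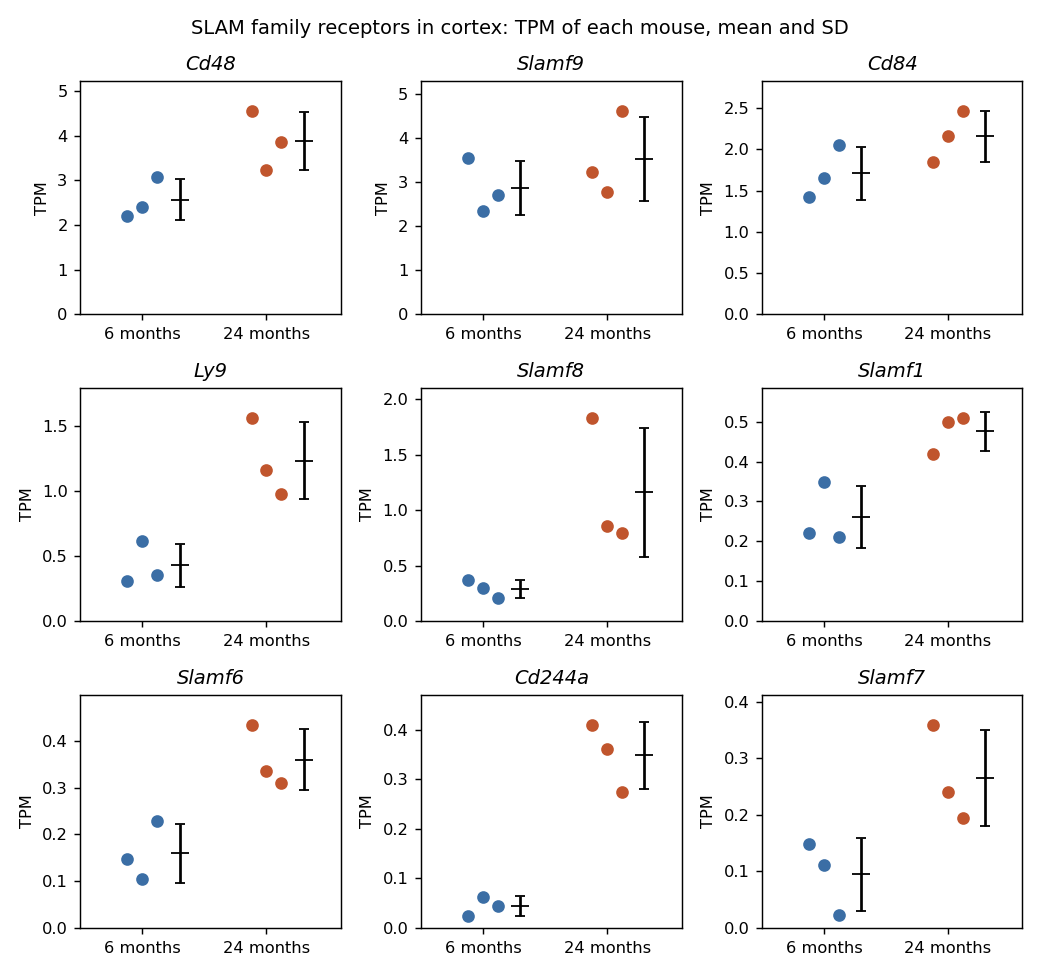
TPM (vertical axes, each from 0 and with its own scale) of the 9 SLAM family genes in each of 3 mice at 6 months (blue) and 3 at 24 months (orange), in order of falling mean level; the black bars are mean and SD. The ages are apart for 7 genes and overlap for Cd84 and Slamf9.

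Of the pair Cd244a and Cd48, the ligand Cd48 was at the higher level in every mouse, and the receptor had the larger fitted difference. Cd244a (ENSMUSG00000004709.14, chr1:171559193-171609746, plus strand), a receptor of natural killer cells and cytotoxic T cells, was at 0.0232, 0.0631 and 0.0441 TPM in the 6-month mice 10, 11 and 17 and at 0.409, 0.361 and 0.275 TPM in the 24-month mice 2, 4 and 5. All 24-month values lay above all 6-month values. These rest on counts of 1, 3 and 2 in the younger mice and of 17, 16 and 12 in the older. The mean was 0.0435 ± 0.0199 TPM at 6 months and 0.349 ± 0.0679 at 24 months (SD, n = 3 each), and the fitted log2 fold change was 2.79 (SE 0.48), the largest in the family. The ratio of summed counts, scaled by library totals without TMM factors, was 8.30, with an exact 95% interval of 3.53 to 23.8 that covers counting error only. Reads without molecular identifiers are not independent molecules, so the true spread may be wider.

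Cd48 (ENSMUSG00000015355.13, chr1:171682009-171705258, plus strand) was at 2.19, 2.41 and 3.08 TPM in the 6-month mice and 4.54, 3.24 and 3.86 TPM in the 24-month mice. The counts were 23, 28 and 34 against 46, 35 and 41. Its TPM did not overlap between the ages, but its TMM-scaled CPM did. The fitted log2 fold change was 0.48 (SE 0.25), with an adjusted p of 0.211 by edgeR's quasi-likelihood test with Benjamini-Hochberg adjustment over all genes tested. Mean TPM was 2.56 ± 0.460 at 6 months and 3.88 ± 0.653 at 24 months (SD, n = 3 each).

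Of the 5 receptors that bind themselves and carry signalling tails, Ly9 and Slamf6 passed 10% FDR and were higher at 24 months. Ly9 (ENSMUSG00000004707.14, chr1:171588624-171607410, minus strand), a receptor of T and B cells, was at 0.308, 0.620 and 0.358 TPM at 6 months and 1.56, 1.16 and 0.981 TPM at 24 months, with no overlap. The counts were 9, 20 and 11 against 44, 35 and 29. Ly9 had a log2 fold change of 1.39 (SE 0.33) and an adjusted p of 0.0552 by edgeR's quasi-likelihood test with Benjamini-Hochberg adjustment. Slamf6 (ENSMUSG00000015314.10, chr1:171917515-171953170, plus strand), known for its part in natural killer T cell development, was at 0.146, 0.104 and 0.228 TPM at 6 months and 0.434, 0.335 and 0.310 TPM at 24 months, again apart. Slamf6 rested on 14, 11 and 23 counts against 40, 33 and 30, with a log2 fold change of 1.05 (SE 0.32) and an adjusted p of 0.0759 in the same test.

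With 2 mice in an age, the number of genes of any kind that passed depended on which mouse was left out. Without the 6-month mouse 10 or 11, or the 24-month mouse 2 or 4, neither gene passed 10% FDR, with adjusted p of 0.121 to 0.182 for Ly9 and 0.172 or more for Slamf6 by the same edgeR test with Benjamini-Hochberg adjustment. In these 4 fits 0, 1, 72 and 0 of all genes tested passed 10% FDR and were higher, so the loss is not particular to Ly9 and Slamf6. Without the 6-month mouse 17, Ly9 was at an adjusted p of 0.102 and Slamf6 at 0.0921 in that test, and without the 24-month mouse 5 both passed. In those fits 1224 and 4364 of all genes tested passed 10% FDR and were higher, against 3299 with all mice. The log2 fold change stayed between 1.20 and 1.80 for Ly9 and between 0.86 and 1.40 for Slamf6 when each mouse was left out in turn.

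Slamf1, Slamf7 and Cd84 did not pass. Slamf1 (CD150; ENSMUSG00000015316.11, chr1:171767127-171801184, plus strand), the founding member and a marker of blood stem cells, was at 0.221, 0.350 and 0.210 TPM at 6 months and 0.420, 0.500 and 0.509 TPM at 24 months, from 12, 21 and 12 counts against 22, 28 and 28. Slamf7 (ENSMUSG00000038179.13, chr1:171632403-171653035, minus strand), carried by natural killer cells and plasma cells, was at 0.149, 0.112 and 0.0235 TPM against 0.359, 0.240 and 0.195 TPM. Both had every 24-month mouse above every 6-month mouse. Their log2 fold changes were 0.75 (SE 0.30) for Slamf1 and 1.35 (SE 0.56) for Slamf7, with adjusted p of 0.128 and 0.139 in edgeR's quasi-likelihood test with Benjamini-Hochberg adjustment. Slamf7 rested on 6, 5 and 1 counts against 14, 10 and 8, and the ratio of its summed counts, scaled in the same way, was 2.95 (exact 95% interval 1.48 to 6.30, counting error only).

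Cd84 (ENSMUSG00000038147.13, chr1:171839697-171890718, plus strand), an adhesion receptor of contacts between T and B cells that is also found on myeloid cells, had the most counts of the family, 79, 101 and 120 at 6 months and 99, 123 and 138 at 24 months. Its TPM was 1.43, 1.65 and 2.06 against 1.85, 2.16 and 2.46, so the ages overlapped. The log2 fold change of Cd84 was 0.22 (SE 0.19), with an adjusted p of 0.457 by the same edgeR test with Benjamini-Hochberg adjustment.

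Of the pair with short tails, Slamf8 had separate ages and Slamf9 overlapping ones. Slamf8 (ENSMUSG00000053318.7, chr1:172581758-172590568, minus strand), a macrophage receptor known to restrain the oxidative burst, was at 0.368, 0.300 and 0.210 TPM at 6 months and 1.83, 0.857 and 0.799 TPM at 24 months. All 24-month mice were above, and mouse 2, with 48 counts against 24 and 22 in mice 4 and 5, stood well over the others. Mean TPM was 0.292 ± 0.0795 against 1.16 ± 0.579 (SD, n = 3 each), and the fitted log2 fold change of 1.86 (SE 0.43) ranged from 1.39 to 2.08 when single mice were left out. Slamf9 (ENSMUSG00000026548.4, chr1:172475358-172478575, plus strand), its relative on macrophages and dendritic cells, was at 3.54, 2.34 and 2.70 TPM at 6 months and 3.22, 2.76 and 4.60 TPM at 24 months, with overlap, from 41, 30 and 33 counts against 36, 33 and 54. Slamf9 had a log2 fold change of 0.19 (SE 0.27) and an adjusted p of 0.658 by edgeR's quasi-likelihood test with Benjamini-Hochberg adjustment. The fitted value of Slamf9 turned to -0.043 without the 24-month mouse 5.

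Counted over the 7 receptors outside the study's list, 0 were called at 1% FDR, a threshold of the study, by edgeR's quasi-likelihood test. Of all genes tested 0.0% were called by this test and the lowest adjusted p was 0.0210, so the 0 is not particular to the receptors. The study, which did not name its edgeR test, did call genes at 1% FDR, so its calls cannot be set against this 0. Before adjustment, 4 of the 7 had p under 0.05 (Ly9, Slamf1, Slamf6 and Slamf7), against 30.7% of all genes tested. At 1% FDR, edgeR's likelihood ratio test and its exact test each called 1 of the 7, Ly9, with adjusted p of 0.00360 and 0.00491, and DESeq2 called 0. The 2 of 7 that passed 10% FDR and were higher compare with 10.0% of all genes tested, and 0 were lower, compared with 8.33%. By TMM-scaled CPM, 4 of 7 had all 24-month mice above all 6-month mice, against 20.0% of all genes tested, and 0 had all below, against 16.2%. By TPM the first number was 5 of 7, against 25.8%. The fitted log2 fold change was above 0 for all 7, with a median of 0.75, where all genes tested had 0.15. The quasi-likelihood p-values weigh each difference against the spread between the 3 mice of each age, moderated toward that of other genes.

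The largest fitted differences were those of the 6 genes at the lowest levels, and the 3 genes at the highest levels had the smallest. The plot of fitted differences shows this order along the chromosome, beside the signalling partners and the other genes of the locus.

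**Figure D2:**
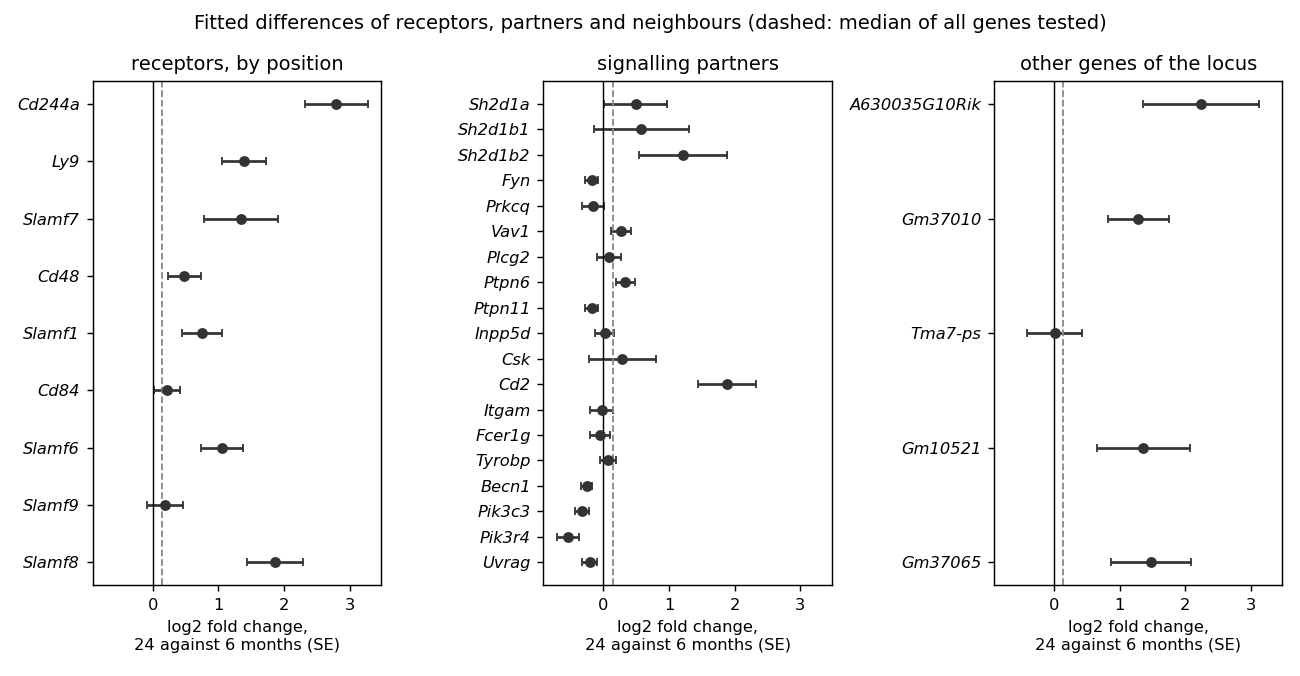
Fitted log2 fold change at 24 against 6 months (horizontal axes, bars are SE) of the 9 receptors in their order on the chromosome, of 19 signalling partners and of the 5 other genes tested in the locus; the dashed line is the median of all genes tested, 0.15. Cd244a, at 2.79, lies farthest right, the partners centre on 0.02, and 4 of the 5 neighbours lie between 1.29 and 2.24.

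The proteins that carry the receptors' signals were read from a list of 19 genes grouped by role, all of which were tested. Of these 19, 1 passed 10% FDR and was higher at 24 months, 3 passed and were lower, and 0 passed 1% FDR in edgeR's quasi-likelihood test, with 5 at an unadjusted p under 0.05. Of all genes tested, 10.0% passed 10% FDR and were higher, 8.33% passed and were lower and 30.7% had an unadjusted p under 0.05. The median log2 fold change of the 19 was 0.02. At 1% FDR, edgeR's likelihood ratio test and exact test each called 1, Cd2, and DESeq2 called 0.

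The SAP family adaptors themselves were near the limit of detection. Sh2d1a, which encodes SAP, was counted 3, 4 and 6 times in the younger mice and 6, 7 and 6 times in the older. Sh2d1b1 had 1, 2 and 6 against 6, 2 and 6, and Sh2d1b2 had 3, 4 and 2 against 11, 9 and 2 (both encode adaptors of the EAT-2 kind, which serve natural killer cells). All 3 overlapped between the ages, with log2 fold changes of 0.49 (SE 0.47), 0.58 (SE 0.73) and 1.22 (SE 0.67) in that order, and none passed 10% FDR.

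The kinases and phosphatases used by the receptors are also used by many other cells of the cortex and were far more abundant. Fyn, the kinase that SAP recruits, had 1000 to 1219 counts in every mouse and a log2 fold change of -0.17 (SE 0.10). Ptpn6, the phosphatase SHP-1 of blood cells and microglia, had 126, 125 and 128 counts against 154, 174 and 166, a log2 fold change of 0.34 (SE 0.14) and an adjusted p of 0.148 by edgeR's quasi-likelihood test with Benjamini-Hochberg adjustment. None of these 8 genes passed 10% FDR.

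Cd2, a T and natural killer cell receptor of the same structural family that in mice also binds Cd48, was the partner that passed and was higher. It was counted 3, 3 and 4 times in the younger mice and 16, 11 and 12 times in the older, with a log2 fold change of 1.89 (SE 0.44) and an adjusted p of 0.0552 by edgeR's quasi-likelihood test with Benjamini-Hochberg adjustment. Its log2 fold change stayed between 1.69 and 2.05 when each mouse was left out in turn. Cd2 did not pass 10% FDR without the 6-month mouse 10 or 11 or the 24-month mouse 2 or 4, the fits in which few genes passed.

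The partners that passed and were lower, as 8.33% of all genes tested did, were 3 of the 4 genes of the class III phosphatidylinositol 3-kinase complex, with which Slamf1 is known to act at the macrophage phagosome and which every cell uses in autophagy. Becn1 had a log2 fold change of -0.25 (SE 0.08), Pik3c3 of -0.32 (SE 0.10) and Pik3r4 of -0.54 (SE 0.17), with adjusted p of 0.0883, 0.0826 and 0.0782 by edgeR's quasi-likelihood test with Benjamini-Hochberg adjustment. All 24-month mice were below all 6-month mice in these 3. With library totals in place of TMM scaling the log2 fold changes were -0.06, -0.13 and -0.35 and none of these 3 passed. With each mouse left out in turn they ran from -0.28 to -0.22 for Becn1, from -0.38 to -0.24 for Pik3c3 and from -0.77 to -0.39 for Pik3r4, and all 3 passed only without the 24-month mouse 5. Without the 6-month mouse 10 or 11 or the 24-month mouse 4, 0 of all genes tested passed and were lower. Uvrag, the fourth gene of the complex, was at -0.20 (SE 0.12) and did not pass. Of the partners of Slamf7 in phagocytosis, Itgam, Fcer1g and Tyrobp, all microglial genes with 95 or more counts in every mouse, all 3 overlapped between the ages, with log2 fold changes of -0.05 to 0.07.

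Since most of the receptors were at very low levels, they were set beside genes best known from sensory epithelia of the nose and tongue, 1545 olfactory, vomeronasal, taste and trace amine receptor genes chosen by symbol. Per kilobase of exon, their pooled level was 0.0206, 0.0228 and 0.0236 CPM in the 6-month mice 10, 11 and 17 and 0.0944, 0.0770 and 0.0552 in the 24-month mice 2, 4 and 5. The mean was 0.0223 ± 0.00156 against 0.0755 ± 0.0196 (SD, n = 3 each), and the median log2 fold change of those tested was 1.81. Olfactory receptors alone gave 0.0236 and 0.0799. The level was thus higher in all 24-month mice, and their order was mouse 2 over 4 over 5. The CPM of Cd244a, Ly9, Slamf6, Slamf7 and Slamf8 had the same order. Cd84 had the reverse order, and Cd48, Slamf1 and Slamf9 had others. The share of all genes with this order was not taken.

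On the same scale Cd244a was at 0.512 ± 0.221 times the sensory receptor level of its own library at 6 months and 1.31 ± 0.0532 times at 24 months (SD, n = 3 each). In the 3 old mice this ratio ran only from 1.25 to 1.36, and at 6 months it rested on 1 to 3 counts a library. Cd244a had all 24-month ratios above all 6-month ratios, a description of a gene chosen on these counts. Slamf7 was at 1.16 ± 0.829 times the level at 6 months and 0.980 ± 0.112 at 24 months, and Slamf6 at 1.90 ± 0.684 and 1.36 ± 0.155, so both stayed near the sensory receptor level with overlapping ages.

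Slamf1, Ly9 and Slamf8 lay above that level and their ratios overlapped. Slamf1 went from 3.10 ± 0.893 to 1.87 ± 0.614, Ly9 from 5.09 ± 1.89 to 4.62 ± 0.325 and Slamf8 from 3.54 ± 1.17 to 4.22 ± 1.26 (SD, n = 3 each). Cd48 was at 30.4 ± 3.85 times the level at 6 months and 14.9 ± 3.71 at 24 months, Cd84 at 20.3 ± 2.65 and 8.56 ± 3.29, and Slamf9 at 34.5 ± 9.54 and 14.2 ± 7.35. These 3 of the 7 receptors outside the study's list had all 24-month ratios below all 6-month ratios, as did 61.4% of all genes tested, and 0 of the 7 had all above, against 2.53%.

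Subtracting the sensory receptor level of each library from the receptor's own level gave another reading. The difference was above in all 24-month mice for Cd48 and Ly9 among the 7 receptors outside the study's list, and for Cd244a and Slamf8 in the list, where 10.7% of all genes with a length had this order. For Ly9 the difference was 0.0919 ± 0.0446 CPM per kilobase at 6 months and 0.273 ± 0.0750 at 24 months, and for Slamf8 it was 0.0554 ± 0.0221 and 0.254 ± 0.156. For Cd244a it was -0.0107 ± 0.00435 and 0.0227 ± 0.00254. For Slamf1, Slamf6 and Slamf7, whose levels themselves did not overlap, the differences did. The part of the sensory receptor level in the receptors' differences was not tested.

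**Figure D3:**
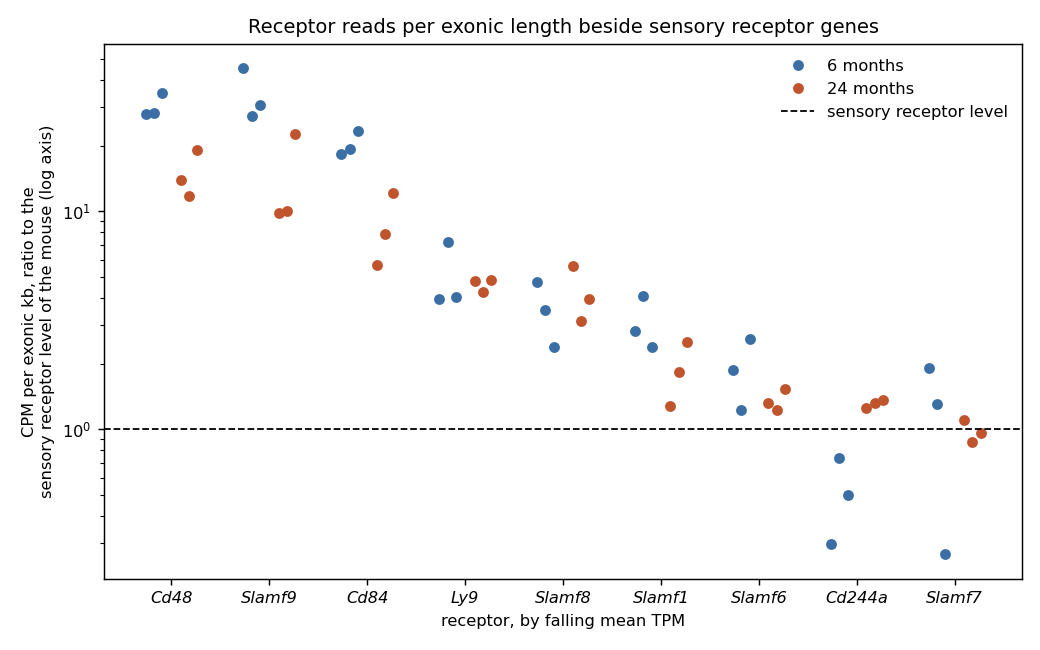
CPM per exonic kilobase of each receptor divided by the sensory receptor level of the same mouse (vertical axis, log scale), for 3 mice at 6 months (blue) and 3 at 24 months (orange); the dashed line marks a ratio of 1. Cd48, Slamf9 and Cd84 lie far above the line and lower at 24 months, Slamf6, Slamf7 and Cd244a lie near it, and in Cd244a the 24-month points all lie above the 6-month points.

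By position, 7 of the receptors, from Cd244a to Slamf6, occupy chr1:171559193-171953170 (GRCm38), and Slamf9 and Slamf8 follow by chr1:172590568. The first stretch holds 12 other annotated genes, of which 5 had enough counts to be tested. None of the 5 passed 10% FDR in edgeR's quasi-likelihood test, 3 had an unadjusted p under 0.05 (30.7% of all genes tested), and their median log2 fold change was 1.36. Gm37010 had 2, 7 and 6 counts against 15, 13 and 10, with a log2 fold change of 1.29 (SE 0.46). Gm37065 had 1, 2 and 2 against 6, 5 and 4, with 1.48 (SE 0.61), and A630035G10Rik had 2, 1 and 0 against 7, 7 and 2, with 2.24 (SE 0.88). Gm10521 had 1, 4 and 2 against 11, 5 and 3, with 1.36 (SE 0.71). These 4 lay within the range of the receptors' fitted differences, and Tma7-ps, with 6, 8 and 9 counts against 6, 7 and 11 and a log2 fold change of 0.02 (SE 0.42), lay below it. Of the 7 that were not tested, 6 had 0 counts in all 6-month mice and 2 in all 24-month mice.

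The second stretch, from the end of Slamf6 to the end of Slamf8, holds 28 other genes, of which 26 were tested. Their median log2 fold change was 0.02, with 1 passing 10% FDR and higher (Atp1a4, 2.07, SE 0.46) and 3 lower (Ncstn, Copa and Kcnj9), against 10.0% and 8.33% of all genes tested. The neighbours of Slamf8 and Slamf9 thus lay on both sides of 0. Overlaps matter for reading these counts, because the stated settings leave featureCounts at its default, which ignores strand. The span of Ly9 lies within that of Cd244a on the opposite strand, without overlap of their exons. Without strand, any unspliced Cd244a reads over the exons of Ly9 would be counted as Ly9. The spans of Cd48 and Slamf6 overlap those of Gm37010 and Gm37065, also without shared exons. An exon of Slamf7 overlaps the antisense gene Gm37787, which had 0 counts at 6 months and 2, 3 and 2 at 24 months. Without strand, reads of Slamf7 and Gm37787 over the stretch they share cannot be told apart.

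Markers of cells that carry these receptors were read from lists by cell type. Microglia, the resident macrophages of the brain, had all 10 markers tested and a summed level of 439 to 452 CPM at 6 months and 489 to 512 at 24 months, and the median of their log2 fold changes was -0.02. Of the 10, Tmem119 passed 10% FDR and was higher and Csf1r passed and was lower. The 6 markers of border and perivascular macrophages summed to 8.93 to 15.1 against 10.5 to 20.2, and none passed. These sums, and those of the lists below, are on library totals, by which the microglial sum was higher in all 24-month mice. The log2 fold changes are on TMM scaling, with factors of 0.92 to 0.95 at 6 months and 1.04 to 1.10 at 24 months. Such factors narrow the difference between the sums, and sums on TMM scaling were not taken.

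Many markers of lymphocytes, monocytes and dendritic cells were at counts as low as those of the receptors. In each list some passed 10% FDR and were higher at 24 months. They were a larger share of the markers tested than the 10.0% of all genes tested. That 10.0% is over genes of all levels, and no share over genes of like level was taken. The list medians of log2 fold change, 0.95 to 1.70, lay below the 1.81 of the sensory receptor genes, also at very low levels. The lists are short, and that of natural killer cells rests on Nkg7 alone. Of 10 T cell markers 3 passed 10% FDR and were higher (Cd3g, Cd8a and Cd8b1), with a sum of 7.92 to 11.3 against 11.1 to 17.0 CPM. Of 7 natural killer cell markers, 6 were tested and 1 passed (Nkg7, with 1 count in each 6-month mouse and 10, 20 and 4 at 24 months), with a sum of 0.209 to 1.12 against 0.853 to 1.73. Of 7 B and plasma cell markers, 6 were tested and 2 passed (Ms4a1 and Jchain), with 1.48 to 2.58 against 3.81 to 6.14. Of 6 monocyte and neutrophil markers, 5 were tested and 3 passed (Ly6c2, Ccr2 and Plac8), with 0.985 to 1.44 against 2.24 to 3.80, and of 6 dendritic cell markers 2 passed (Itgax and Xcr1), with 9.64 to 9.75 against 8.88 to 13.7. No marker was at 0 in all mice of an age. The T cell receptor chain Cd3e had 4, 4 and 7 counts against 10, 9 and 10 and a log2 fold change of 0.89 (SE 0.43) that did not pass, and Cd6, the T cell marker with the most counts, 156 to 253 in every mouse, was at -0.08 (SE 0.21). The part of these cells in the receptors' differences was not tested.

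**Figure D4:**
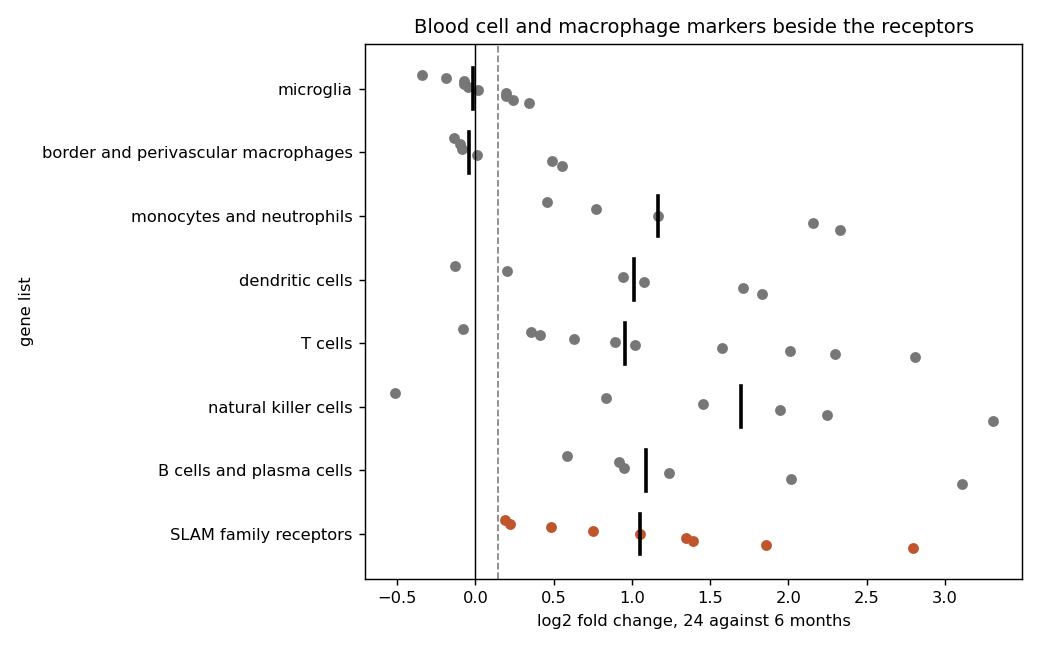
Fitted log2 fold change at 24 against 6 months (horizontal axis) of the tested markers of 7 cell types (grey points, 1 per gene) and of the 9 receptors (orange); the black bars are list medians and the dashed line the median of all genes tested, 0.15. Microglia and border macrophages centre near 0, at -0.02 and -0.04, and the lymphocyte, monocyte and dendritic cell lists at 0.95 to 1.70.

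Of the cells of the cortex itself, 5 neuron markers had 6351 to 8429 CPM in sum over all mice, of which Syt1 passed 10% FDR and was lower, and none of the astrocyte, oligodendrocyte, endothelial, choroid plexus or meningeal markers passed. The labelled tissue was thus present in all libraries by its defining markers. Of 5 red blood cell markers 1 passed (Hbb-bt, lower).

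The patterns of the receptors over the 6 libraries were compared on log2 CPM (prior count 2). Ly9 followed Cd244a most closely within the family (Pearson r = 0.97), and Slamf9 least (r = 0.10). The span of Ly9 lies within that of Cd244a, and the part of reads counted without strand in their likeness was not tested. Among 19445 protein-coding genes, those most like Cd244a were Adamts12, Ldb1, Col14a1, Cckar and Irx5, with r of 0.996 to 0.994, and 1227 genes had r above 0.9. Those most like Cd48 were Olfr1168, Vmn1r189, Rgl2, Sytl3 and Olfr309, with r of 0.998 to 0.986, and 382 genes had r above 0.9. With 6 libraries that share the split by age, such values are a description. Of the 5 genes most like Cd48, 3 were sensory receptors, at 0 to 12 counts a library. Sensory receptors were 1271 of the 19445 genes compared.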

How the data were processed

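Cortex RNA of 6 male mice, 3 at each age, was read by single-end sequencing. Per the study's methods and the processing notes of the submitters, the authors trimmed reads with Trim Galore 0.6.4, mapped them to GRCm38 with STAR 2.7.3a and deposited counts per gene over exons from featureCounts of Subread (2.0.0), 1 file per mouse. The TPM values deposited by the authors come from those counts and exonic length. The stated settings leave featureCounts at its default, which ignores strand.

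Here, counts were tested with edgeR 4.0.16 (TMM scaling, quasi-likelihood test, no covariate) on genes with at least 10 counts over 6 libraries, with Benjamini-Hochberg adjustment over all genes tested. Calls were read at 1% FDR, as in the study, and at 10%. The fit was tested on simulated data. TPM served for levels between genes, CPM per exonic kilobase for the comparison with sensory receptors, with lengths and coordinates from GENCODE vM21, where 55240 of 55421 identifiers matched. Alternatives were the likelihood ratio and exact tests, DESeq2 1.42.0, other scalings and filters, and leaving out each mouse. The members, gene lists and the rule for named genes (all members, partners and locus genes, marker genes where a list is described, and the 5 genes closest in pattern to Cd244a and to Cd48) were chosen with earlier results of these data known. Libraries held 29495379 to 36494240 counts. From the list of B and plasma cell markers, 1 gene is not reported here and is left out of its counts and sums.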

Additional observations from a re-analysis of the deposited data

How the results depend on the processing

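The fitted log2 fold change of 8 of the 9 receptors kept its sign under every alternative in which the gene was tested. That of Slamf9 ran from -0.043 (without the 24-month mouse 5) to 0.38 (without mouse 4) when single mice were left out. The number of the 7 receptors called at 1% FDR, 0 by edgeR's quasi-likelihood test, was 1 by the likelihood ratio test and 1 by the exact test of edgeR, and stayed 0 with each mouse left out. The number passing 10% FDR and higher, 2, was 4 by the likelihood ratio test, 0 with a filter of at least 1 CPM in 3 libraries, under which only Cd48, Cd84 and Slamf9 were still tested, and 0 to 2 with each mouse left out. Of the signalling partners, the likelihood ratio test and the exact test each called 1 at 1% FDR. The number of partners passing 10% FDR, 4, ran from 0 to 5 over the alternatives. Of the other locus genes, 2 passed 10% FDR by the likelihood ratio test, 2 by the exact test, 1 with library totals and 2 without the 24-month mouse 5. By CPM without division by length, Cd84 came before Slamf9 and Cd48, and Slamf6 moved to place 4. Over all genes tested, 0 were called at 1% FDR by the quasi-likelihood test, 1703 by the likelihood ratio test, 1122 by the exact test and 227 by DESeq2, and 10096 had an unadjusted p under 0.05. For the low receptors depth limits the precision: Cd244a rested on 6 counts in all at 6 months and Slamf7 on 12. No paired analysis was possible because the mice of the 2 ages share no numbers.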
